A study of Arabidopsis thaliana with 2 samples.

Results

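Indole glucosinolates and camalexin are sulfur-containing defence compounds that Arabidopsis makes from tryptophan. The P450 enzymes CYP79B2 and CYP79B3 turn tryptophan into indole-3-acetaldoxime, which then stands at a fork. CYP83B1 takes it into indole glucosinolates, stored compounds that give toxic products once leaf cells are broken or attacked. CYP71A12 and CYP71A13 dehydrate the same aldoxime to indole-3-acetonitrile, from which PAD3 in the last steps makes camalexin, a phytoalexin that leaves form on infection.

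The branch was described through 10 genes of the 33557 loci in the deposited expression table. The genes were picked by their place in the pathway, with earlier results of these data known. They comprise the MYB regulators MYB34, MYB51 and MYB122, the aldoxime enzymes CYP79B2 and CYP79B3, the indole glucosinolate enzymes CYP83B1 and CYP81F2, and the camalexin genes CYP71A12, CYP71A13 and PAD3. All 10 had a row in the table, and 7 of them encode cytochromes P450.

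RNA was sequenced from leaves of Columbia plants aged 2 weeks, kept at 23 °C by day and night with 16 h of light. The first library came from wild type. The second came from homozygous Atclb1-1 plants, a T-DNA insertion line in AtCLB, a gene for a calcium-dependent lipid-binding protein, which the labels call a loss of function. The sources used here do not say whether several plants were pooled. With 1 library for each genotype there was no replicate check of any difference, and no test was possible.

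Expression is given in FPKM, which divides fragments by the length of the transcript and by how many fragments were mapped in all. Where a pair of values stands for a gene, wild type comes first and the Atclb1-1 library second. The steps between low values put the Atclb1-1 library at 1.21 times the depth of wild type. It held an estimated 16700000 to 18200000 mapped fragments against 14300000 to 15400000. AtCLB itself had 39.2 FPKM in the wild type library against 13.5 FPKM in the Atclb1-1 library. Leaf markers were abundant in both libraries, at a summed 33696 and 21040 FPKM over 5 genes. By the 2-fold rule below, 2 of these 5 were lower in the Atclb1-1 library (10.8% of all loci kept were) and none higher. Of 9 root markers 5 were listed at 0 in both libraries, and the summed level of the 9 was 16.1 and 25.7 FPKM. Of the 3 root markers kept 1 was higher, kept through the Atclb1-1 library alone, where 17.2% of all loci kept were higher.

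CYP71A12 and CYP71A13 are shown first because they had the largest differences of the branch and because their values rest on telling a pair of similar genes apart. CYP71A12 lies on TAIR10.1 chromosome 2 from 13099486 to 13101371 and CYP71A13 from 13109909 to 13111988, both on the minus strand, with 8537 bases between them. Their coding sequences, each 1494 nt long, were 90.4% identical. The first 120 coding bases, from chr2:13101252-13101371 and chr2:13111869-13111988 on the minus strand, follow with the 13 bases that differ in capitals.
CYP71A12: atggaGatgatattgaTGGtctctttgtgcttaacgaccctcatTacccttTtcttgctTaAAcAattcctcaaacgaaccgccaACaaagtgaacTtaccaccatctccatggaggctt
CYP71A13: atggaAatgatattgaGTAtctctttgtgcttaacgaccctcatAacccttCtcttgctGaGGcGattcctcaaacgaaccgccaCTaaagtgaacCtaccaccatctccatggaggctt
The longest run without a difference was 59 bases. Of all 50-base windows of the CYP71A12 coding sequence 0.692% also occurred in CYP71A13, and of all 36-base windows 5.35%. The sources used here give no read length.

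Upstream of the pair, the stretches from 300 to 61 bases before the coding start lie at chr2:13101432-13101671 and chr2:13112049-13112288. Capitals mark the W-box core TTGAC on either strand, the letters that WRKY factors such as the camalexin regulator WRKY33 are known to bind.
CYP71A12: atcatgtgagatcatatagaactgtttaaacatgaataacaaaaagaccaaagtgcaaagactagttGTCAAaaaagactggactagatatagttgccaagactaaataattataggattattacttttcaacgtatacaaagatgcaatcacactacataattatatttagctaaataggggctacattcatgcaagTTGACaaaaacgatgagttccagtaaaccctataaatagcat
CYP71A13: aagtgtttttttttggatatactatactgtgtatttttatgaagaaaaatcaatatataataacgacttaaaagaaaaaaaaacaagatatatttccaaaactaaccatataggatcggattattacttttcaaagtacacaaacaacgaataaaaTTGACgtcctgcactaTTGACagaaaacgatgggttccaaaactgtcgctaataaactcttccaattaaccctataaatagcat
Each stretch held 2 copies of the core. In the 300 bases before the annotated start, 4 of the 10 members held TTGAC, namely MYB51, CYP81F2, CYP71A12 and CYP71A13, against 50.4% of 27443 protein-coding genes. CYP71A12 and CYP71A13 have no annotated transcribed stretch before the coding start, where the other members have 71 to 738 nt. The windows were thus not placed alike relative to the coding start. The G-box CACGTG, the evening element AAAATATCT and the CCA1-binding letters AAAAATCT, each searched on both strands, were in none of the 10 windows, and in 7.09%, 2.79% and 7.94% of all genes.

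In the Atclb1-1 library 6 genes of the branch passed 2-fold upwards (17.2% of all loci kept did), 3 lay within 2-fold and MYB122 was too low to count. Each of the 10 genes had a higher FPKM there than in wild type, although for MYB51 the difference was -0.0027 without the length and GC trend. All loci kept leaned the same way, with a median difference of 0.21, and their share with a higher FPKM was not counted. Together the 10 genes summed to 304 FPKM in the wild type library and to 581 FPKM in the other. Differences are given as log2 of (Atclb1-1 FPKM + 1) over (wild type FPKM + 1), which understates those of low genes, and a gene was counted as higher or lower from 2-fold on that scale. A locus was kept if either library reached 1 FPKM. By this rule 9 members were kept, and all 9 reached 1 FPKM in both libraries. Of these 6 were higher and none lower, where 17.2% of the 18171 loci kept were higher and 10.8% lower. The median difference of the 9 members was 1.26, beside 0.21 for all loci kept.

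**Figure D1:**
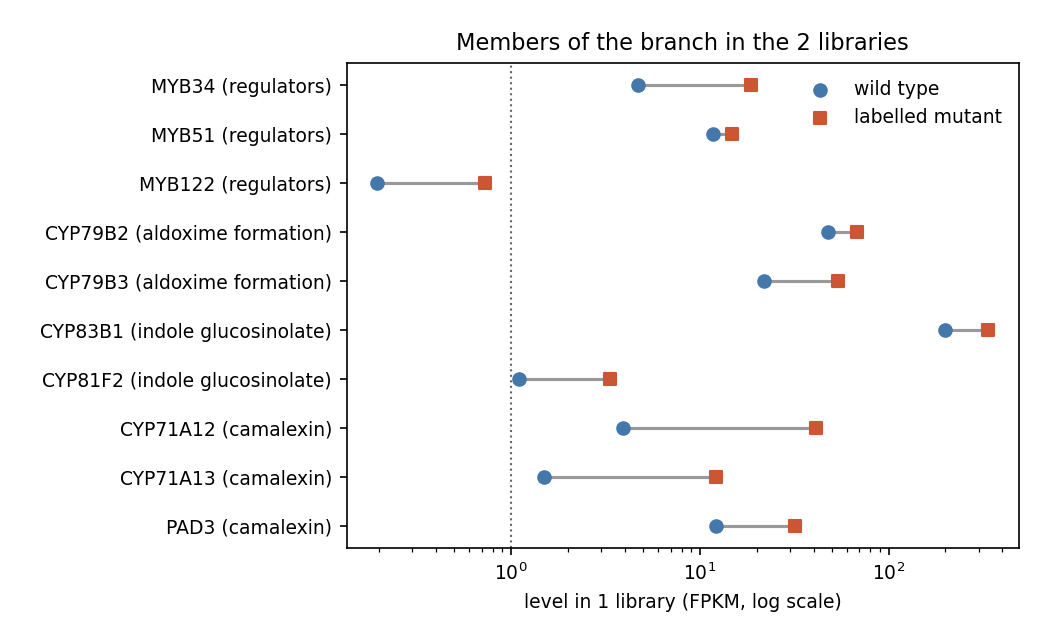
Level of each of the 10 members in the wild type library (circles) and the Atclb1-1 library (squares), in FPKM on a log axis; the dotted line marks 1 FPKM. All squares lie to the right of their circles, with the widest gaps for CYP71A12 (3.92 and 41.2 FPKM) and CYP71A13 (1.49 and 12.2 FPKM). The median log2 difference of all loci kept was also above 0, at 0.21.

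Among the regulators, MYB34 and MYB51 are R2R3-MYB factors that switch on indole glucosinolate genes. MYB34 (AT5G60890) had 4.71 FPKM in the wild type library against 18.7 FPKM in the Atclb1-1 library. This was 3.97-fold higher as a ratio of FPKM, a difference of 1.79 on the log2(FPKM + 1) scale, and 6.50% of the loci kept had a larger one. MYB51 (AT1G18570) was at 11.8 and 14.7 FPKM, a difference of 0.30, close to the 0.21 of all loci. It was -0.0027 once differences that go with the length and base composition of transcripts were taken out. MYB51 had the higher FPKM of the pair in wild type and MYB34 in the Atclb1-1 library, with MYB34 at 0.40 times MYB51 in the first and 1.27 times in the second.

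MYB122 (AT1G74080), a further factor of the same subgroup, was at 0.195 and 0.725 FPKM, below 1 FPKM in both libraries, and was not counted. Its annotated length puts these values at roughly 4 to 5 and 19 to 21 fragments. The coding sequences of the 3 MYB genes were 56.3% to 67.8% identical and shared no 36-base window.

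The aldoxime genes are near duplicates in function but differed in size of difference. CYP79B2 (AT4G39950) had 47.8 FPKM in the wild type library against 68.4 FPKM in the Atclb1-1 library, a log2 difference of 0.51. CYP79B3 (AT2G22330) was at 21.9 and 53.9 FPKM, a difference of 1.26 that lay at 1.00, just under 2-fold, without the length and GC trend. The ratio of CYP79B3 to CYP79B2 was 0.46 in wild type and 0.79 in the Atclb1-1 library. Their coding sequences were 78.1% identical with no 36-base window in common.

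On the glucosinolate side, CYP83B1 (AT4G31500), which oxidises the aldoxime, was the most abundant member in both libraries. It had 199 FPKM in the wild type library against 336 FPKM in the Atclb1-1 library, a log2 difference of 0.75, under 2-fold. It made up 65.4% of the summed FPKM of the branch in wild type and 57.8% in the Atclb1-1 library. CYP81F2 (AT5G57220), which hydroxylates the indole ring for pathogen-triggered glucosinolate breakdown, was among the lowest members, at 1.10 and 3.35 FPKM. The wild type value stands for roughly 28 to 30 fragments. Its difference of 1.05 was close to the threshold and was 0.89 with the libraries centred on the median ratio of well-expressed loci, and 0.45 with 5 added in place of 1.

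The 3 camalexin genes all passed 2-fold, with higher values in the Atclb1-1 library. CYP71A12 (AT2G30750) had 3.92 FPKM in the wild type library against 41.2 FPKM in the Atclb1-1 library. The ratio was 10.5 and the log2 difference 3.10, exceeded by 283 of the 18171 loci kept (1.56%). CYP71A13 (AT2G30770) was at 1.49 and 12.2 FPKM, with a log2 difference of 2.41 that 617 loci kept exceeded. PAD3 (AT3G26830), the P450 of the final steps, was at 12.2 and 31.7 FPKM, a difference of 1.31. At a 4-fold threshold CYP71A12 and CYP71A13 were the only members counted as higher, where 5.29% of all loci kept were higher and 2.64% lower.

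The value of CYP71A13 carries a limit of its own. AT2G30766, annotated as an uncharacterized protein on the opposite strand, was at 39.6 FPKM in the Atclb1-1 library and listed at 0 in the other. Its annotated exons cover chr2:13109909-13110238, the last 330 nt or 22.1% of the CYP71A13 transcript. The sources used here do not say whether the authors counted by strand, reads there cannot be assigned to either gene, and the part of this overlap in the CYP71A13 value was not tested. CYP71A12 and the other 8 members overlapped no annotated gene. Around the pair, AT2G30740 was at 12.7 and 14.4 FPKM and AT2G30780 at 3.08 and 5.20 FPKM, both within 2-fold, and AT2G30760 was listed at 0 in both libraries.

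In the plane of both libraries' log2(FPKM + 1) values, the loci nearest to CYP71A12 were AT5G42830, annotated as an acyl-transferase (3.91 and 40.2 FPKM), AT1G19210, annotated as an integrase-type DNA-binding protein (4.02 and 39.1 FPKM), and EP3, a chitinase gene (3.65 and 41.2 FPKM). This likeness rests on 2 values per gene.

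**Figure D2:**
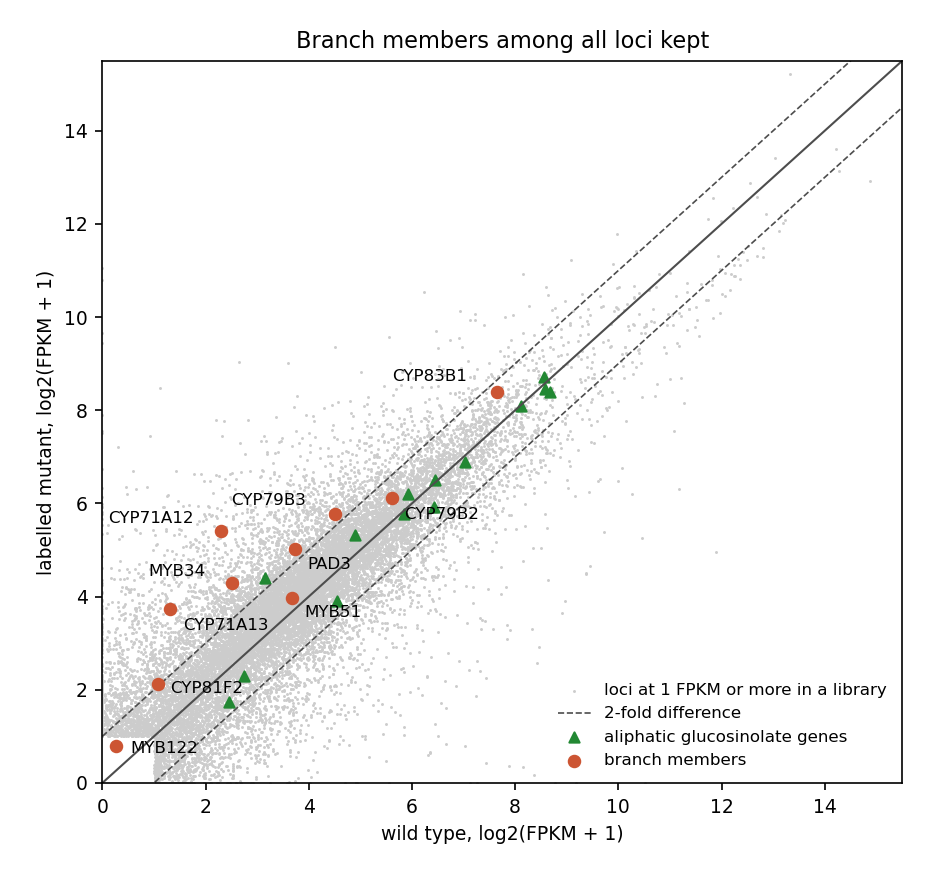
Wild type (x) against Atclb1-1 (y) levels as log2(FPKM + 1) for the 18171 loci kept (grey), the 10 branch members (orange circles, MYB122 below the filter) and 14 aliphatic glucosinolate genes (green triangles); dashed lines mark 2-fold. CYP71A12 and CYP71A13 lie farthest above the diagonal among the members. Inside the 2-fold lines lie 13 of the 14 aliphatic genes and 13091 of the 18171 loci kept.

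Ratios of members within a library do not depend on how the libraries are scaled. CYP83B1 stood at 2.86 times the summed aldoxime genes in wild type and at 2.75 times in the Atclb1-1 library. CYP71A12 and CYP71A13 together amounted to 2.72% of the CYP83B1 level in wild type and to 15.9% in the Atclb1-1 library. Without CYP71A13, the shares of CYP71A12 alone were 1.97% and 12.3%. PAD3 stood at 3.12 times the CYP71A12 level in wild type and at 0.77 times in the Atclb1-1 library. These are levels of transcripts, per length, in 1 library each.

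**Figure D3:**
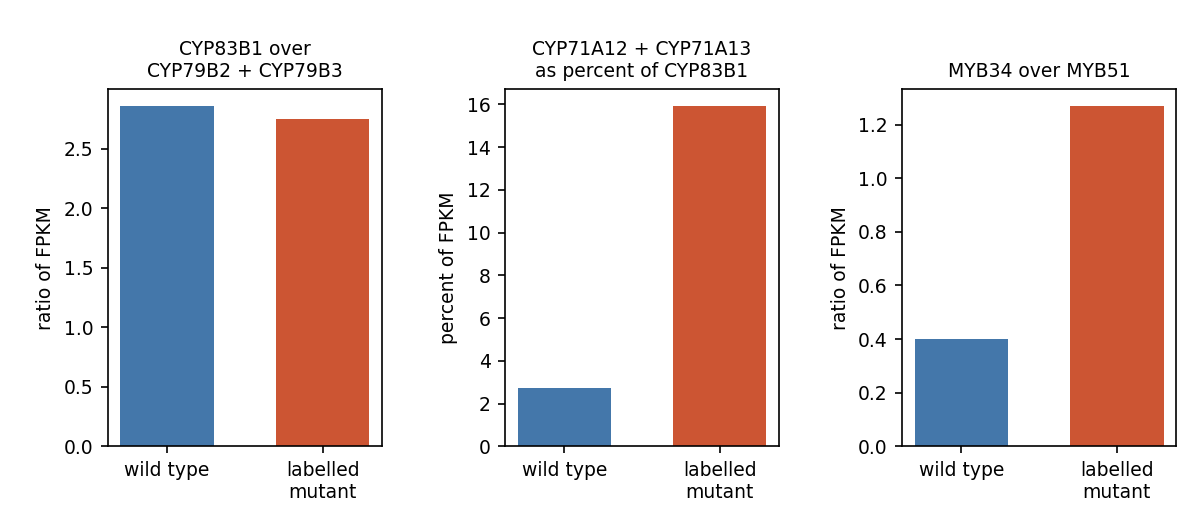
Ratios of FPKM within the wild type and the Atclb1-1 library, 1 library per bar, with axes from 0. The ratio of CYP83B1 to CYP79B2 plus CYP79B3 is 2.86 and 2.75, CYP71A12 plus CYP71A13 are 2.72% and 15.9% of CYP83B1, and MYB34 is 0.40 and 1.27 times MYB51.

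Other genes of the indole pathway, 48 in 7 lists, were mixed. Of the 43 kept, 14 were higher (32.6%) and 4 lower (9.30%), where 17.2% of all loci kept were higher and 10.8% lower. Their median difference was 0.61. CYP82C2 and IGMT1, among the 14 higher genes, were kept through the Atclb1-1 library alone. With a filter at 5 FPKM 12 were higher and 4 lower, where 2546 of all loci were higher and 1518 lower. In tryptophan synthesis 1 of 9 genes kept was higher (11.1%, under the share of all loci) and none lower. It was TSB2, for a tryptophan synthase beta chain, at 4.93 and 20.9 FPKM. Its more abundant partner TSB1 was at 165 and 135 FPKM. The list called shared glucosinolate core had 2 of 6 genes lower (33.3%) and none higher. Not all its steps are shared, since sulfotransferase genes stood both here (SOT16) and in the aliphatic list (SOT17, SOT18). Both lower genes encode glutathione transferases, GSTF9 at 2391 and 1035 FPKM and GSTF10 at 472 and 145 FPKM. The other 4 had differences of 0.39 to 0.98.

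Enzymes that decorate the indole ring went in opposite directions, with 2 of 6 genes kept higher and 2 lower, 33.3% each. Of all loci kept 17.2% were higher and 10.8% lower. CYP81F1, a relative of CYP81F2 that also hydroxylates the ring, was at 7.49 and 95.7 FPKM, a log2 difference of 3.51 that exceeded that of any branch member. CYP81F3 was at 15.3 and 12.03 FPKM. IGMT5, whose enzyme methylates the hydroxyl group on the ring nitrogen, was 12.2-fold lower at 54.2 and 4.45 FPKM. IGMT4 was at 234 and 52.9 FPKM, while IGMT1, kept through the Atclb1-1 library alone, was at 0.388 and 3.12 FPKM. The coding sequences of IGMT4 and IGMT1 were 93.0% identical with a shared run of 149 bases, so the division of reads among IGMT1 to IGMT4 is uncertain. Summed over these 4 genes the level was 237 FPKM in the wild type library against 59.9 FPKM in the Atclb1-1 library.

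Further genes of camalexin and of the related indole cyanogen pathway had 3 of 5 genes kept higher (60%) and none lower. Of all loci kept 17.2% were higher and 10.8% lower. The glutathione transferase gene GSTU4 was at 17.5 and 144 FPKM and FOX1, for an FAD-linked oxidase, at 2.58 and 11.8 FPKM. CYP82C2 was at 3.47 FPKM in the Atclb1-1 library, through which alone it was kept, and listed at 0 in the other. Of 5 camalexin regulators 1 was higher (20%, near the share of all loci), the NAC factor gene NAC042 at 3.79 and 15.0 FPKM. WRKY33 was at 53.4 and 95.5 FPKM, a log2 difference of 0.83, and the kinase gene MPK3 at 149 and 150 FPKM.

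Of 7 other regulators linked to the branch 4 were higher (57.1%) and none lower, where 17.2% of all loci kept were higher and 10.8% lower. MYC2 and MYC4, jasmonate-pathway factors that act with the MYB regulators, had 106 and 328 FPKM (MYC2) and 5.46 and 25.7 FPKM (MYC4). WRKY18 was at 16.5 and 171 FPKM and WRKY40 at 35.0 and 89.7 FPKM. Among 5 genes of breakdown and transport 3 were higher (60%). The glucosinolate importer genes GTR1 and GTR2 had 39.6 and 163 FPKM (GTR1) and 41.7 and 173 FPKM (GTR2), and PDR12, an ABC transporter gene also called ABCG40, at 4.25 and 13.9 FPKM. PEN2, the myrosinase that cleaves indole glucosinolates in living cells, was at 159 and 91.7 FPKM, and PEN3 at 290 and 237 FPKM. Of the 101 genes in the lists that are not members, 32 overlap another annotated gene, among them CYP81F1, IGMT5, GSTF10, NAC042, MYC2, WRKY40, GTR1 and GTR2.

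**Figure D4:**
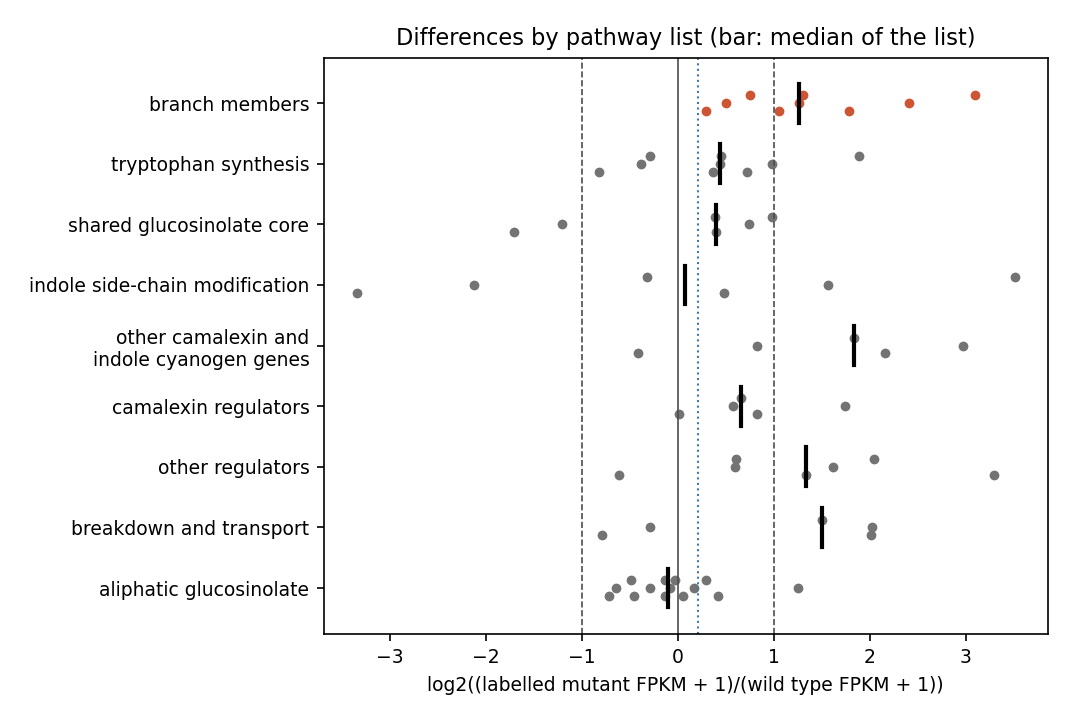
Log2 difference, Atclb1-1 over wild type with 1 FPKM added, of each kept gene (points) in the branch and in 8 other lists; black bars are list medians, dashed lines 2-fold, and the dotted line the median of all loci, 0.21. Branch members all lie above 0 as plotted (MYB51 is at -0.0027 without the length and GC trend) with a median of 1.26, and aliphatic glucosinolate genes gather around -0.10.

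Aliphatic glucosinolates are made from methionine through parallel enzymes, and most of their genes lay within 2-fold between the libraries. Of 14 genes 1 was higher (7.14%) and none lower, where 17.2% of all loci kept were higher and 10.8% lower. The median difference was -0.10. The exception was CYP79F2 at 7.86 and 20.2 FPKM, 91.2% identical in coding sequence to CYP79F1 at 277 and 271 FPKM. Differences in the list ran from -0.72 to 1.26. Its MYB genes all lay below 0, with MYB28 at -0.49, MYB29 at -0.64 and MYB76 at -0.72. CYP83A1, the aliphatic counterpart of CYP83B1, was at 375 and 421 FPKM. The ratio of CYP83B1 to CYP83A1 was 0.53 in wild type and 0.80 in the Atclb1-1 library. No test of the difference between the indole and aliphatic genes was possible.

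Since 7 members are cytochromes P450, the family was also counted, a comparison added after values were seen. Of 111 other annotated P450 genes kept, 47 were higher (42.3%) and 7 lower. Their median difference was 0.69. The share of higher genes among all loci was 17.2%, below that of the other P450 genes. The median difference of these P450 genes was 0.38 without the length and GC trend, 0.79 with equal nuclear totals, 0.91 with a filter at 5 FPKM and 0 over all 254 with no filter.

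Clock genes of opposite phase differed between the libraries beside this branch. All 5 dawn genes were higher (17.2% of all loci kept were), at a summed 42.6 FPKM in the wild type library against 409 FPKM in the Atclb1-1 library. Of 9 evening genes 8 were lower (10.8% of all loci kept were), at a summed 4639 and 100.4 FPKM for the 9. GRP7 alone gave 3794 and 30.3 FPKM of these sums. The sources used here give no hour of harvest, genotype and any difference in harvest or growth cannot be told apart with 1 library each, and the part of clock phase in the branch differences was not tested. The 10 reference genes were all within 2-fold, with UBQ10 at 1012 and 1583 FPKM and GAPC2 at 812 and 1195 FPKM. Of all loci counted as different, 61.5% were higher in the Atclb1-1 library, 50.7% with the libraries centred on the median ratio and 49.0% without the length and GC trend.

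**Figure D5:**
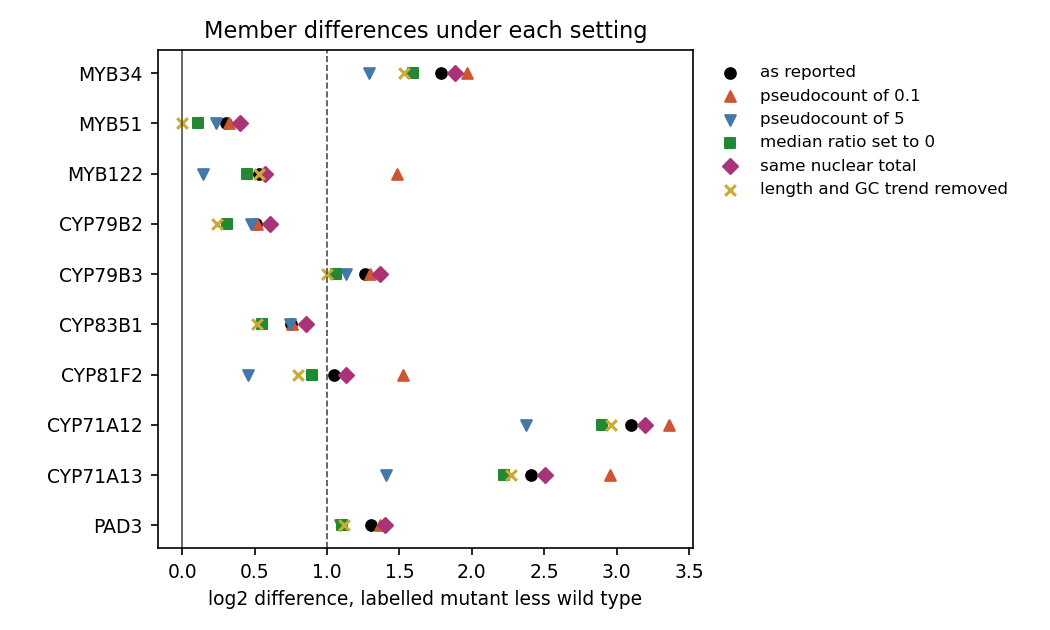
Log2 difference of each member as reported (black) and with another pseudocount, with the libraries rescaled in 2 ways, or with the length and GC trend removed; the dashed line is 2-fold. CYP71A12 stays between 2.37 and 3.36 and CYP71A13 between 1.41 and 2.96, while MYB51 reaches -0.0027. The trend was removed for loci kept only, so for MYB122 that point repeats the reported 0.53.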

How the data were processed

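The deposited table gives FPKM for 33557 loci, 1 column per library, as named per the file headers. The authors' tools were TopHat 1.3.2 and Cuffdiff on TAIR10, per the submitters' processing notes. The sources used here give no parameters, annotation release or use of strand. FPKM divides by length and by the mapped total, so abundant loci shift all others.

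Groups came from the genotype labels. Differences were log2((Atclb1-1 FPKM + 1)/(wild type FPKM + 1)), over loci that reached 1 FPKM in either library. Higher or lower means at least 2-fold. No p-value was computed. Depth was read from 2434 loci between 0 and 1 FPKM in both libraries, whose ratios piled up at 0.826. Fragments per gene are rough, from TAIR10.1 RefSeq lengths, and no counting interval is given. Positions and sequences came from TAIR10.1 RefSeq, to which 32810 identifiers matched. Coding sequences were aligned with Biopython 1.88. Named genes were all members, AtCLB, list genes past 2-fold (the 2 largest differences in a list without any) and the 3 loci nearest CYP71A12. Of the clock, leaf and root lists, whose genes past 2-fold the rule also covers, only counts and summed levels are given, apart from GRP7. Others were named after their values were seen. Members and lists were chosen with earlier results of these data known. Counting was tested on simulated data without noise, with changes set past the threshold in well-expressed loci. This checks the code only and cannot speak to low values.

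Alternatives were pseudocounts of 0.1 and 5, no filter, a filter at 5 FPKM, a median ratio of 0, equal nuclear totals, removal of medians in 20 length by 10 GC bins, a 4-fold threshold and list means.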

Additional observations from a re-analysis of the deposited data

How the results depend on the processing

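No paired analysis was possible because each genotype has 1 library, and for the same reason no replicate could be left out. Under 5 other pseudocounts, scalings and corrections the median of all loci kept ran from 0 to 0.30. Across 50 member differences under the same settings, 49 were above 0. The exception was MYB51, at -0.0027 without the length and GC trend, and 6 in all crossed 2-fold or 0. A pseudocount cannot change a sign, and equal nuclear totals scaled the Atclb1-1 values up. These settings could therefore not turn a member negative, and their signs are no separate evidence. The length and GC trend was not removed for MYB122, which was not kept. Removing that trend put the members' median at 1.00, just under 2-fold, and left 4 members higher. Among the 99.1% of loci kept with a transcript length, 2375 were then higher and 2469 lower. A 4-fold threshold left 2 members higher, and 7 indole pathway genes higher and 2 lower. Of all loci kept 961 were then higher (5.29%) and 480 lower (2.64%). With a pseudocount of 5, 1774 loci were higher and 1058 lower, against 3124 and 1956 as reported. No alternative counted a member as lower. The median of the side-chain modification list, 0.08, turned to -0.01 with a pseudocount of 5, -0.09 with the libraries centred on the median ratio, -1.22 with a filter at 5 FPKM and -0.04 as a mean, and that of the shared glucosinolate core, 0.40, was -0.06 as a mean. Depth limits CYP81F2, CYP71A13 and MYB122 most, each resting on few fragments in wild type.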
